A study of Rattus norvegicus with 16 samples.

Results

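The Rtl1 antisense microRNAs are a small group of imprinted miRNAs whose hairpins lie within the gene of the retrotransposon-like protein Rtl1. They were taken as every listed row named rno-miR-127, rno-miR-136, rno-miR-431, rno-miR-433 or rno-miR-434, with or without an arm suffix. This gave 9 mature miRNAs of the 722 rat miRNAs counted. Both arms were listed for miR-127, miR-136, miR-433 and miR-434, and miR-431 had a single row with no arm named. Small RNA was sequenced from the amygdala, a forebrain region that handles fear and emotional learning, and from the dorsal raphe, the midbrain nucleus that sends serotonin to the forebrain. The rats were 60 days old and belonged to a High Responder or a Low Responder strain, lines known for strong or weak locomotor response to a new environment. The groups were amygdala of high responders, amygdala of low responders, dorsal raphe of high responders and dorsal raphe of low responders, with 4 libraries each and 16 in all. No treatment is labelled, and every library is from tissue of mixed cells. Whether each library stands for its own rat is not labelled. The p-values therefore reflect how much these libraries vary, which may be technical.

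Imprinted genes are expressed from only the maternal or only the paternal copy. In the Dlk1-Dio3 domain of mammals the protein-coding genes Dlk1, Rtl1 and Dio3 are expressed from the paternal chromosome, and long noncoding transcripts that begin at Meg3 are expressed from the maternal one. Many miRNAs are cut from those maternal transcripts. The miRNAs studied here are transcribed across Rtl1 from the opposite strand, so they match the Rtl1 messenger RNA fully, and in mice they direct its cleavage; mouse Rtl1 is needed for the fetal vessels of the placenta. The domain is expressed in brain, placenta and muscle among other tissues. Each hairpin can give a mature miRNA from its 5′ side (5p) and one from its 3′ side (3p), and bases 2 to 8 of a mature miRNA, its seed, largely decide which messenger RNAs it binds.

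Sequences were found in RefSeq (rat assembly GRCr8) for 7 of the 9 mature miRNAs, and they are shown because each has a seed of its own. They are given 5′ to 3′ with the seed in capitals and in the order of their hairpins along the plus strand.
miR-431: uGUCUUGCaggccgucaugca
miR-433-5p: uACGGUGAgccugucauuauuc
miR-433-3p: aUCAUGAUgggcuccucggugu
miR-127-3p: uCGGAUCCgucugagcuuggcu
miR-434-5p: aGCUCGACucaugguuugaacca
miR-434-3p: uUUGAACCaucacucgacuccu
miR-136-3p: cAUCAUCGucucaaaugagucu
The 7 sequences were 21 to 23 bases long. No seed was shared between them, and none occurred in any other of the 693 mature rat miRNAs of the same table. The table had no entry for miR-127-5p and miR-136-5p.

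In that assembly all 5 hairpin genes lay inside the span of Rtl1, in the order Mir431, Mir433, Mir127, Mir434 and Mir136. The hairpin of the most abundant member and a hairpin with both of its arms in the table follow, with the mature arms of the table in capitals, to show from which side each product is cut.
Mir127: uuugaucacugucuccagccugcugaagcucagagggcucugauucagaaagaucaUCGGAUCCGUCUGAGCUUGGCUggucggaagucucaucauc
Mir434: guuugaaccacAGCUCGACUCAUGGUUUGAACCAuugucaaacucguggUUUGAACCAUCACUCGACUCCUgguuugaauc
The Mir127 hairpin is 97 bases long and carries the miR-127-3p sequence on its 3′ side. The Mir434 hairpin is 81 bases long and carries both listed arms.

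The libraries held 1741167 to 8134915 counts, and 2 of them stood apart. High responder amygdala replicate 1 had the fewest counts. Low responder dorsal raphe replicate 4 had 2096188 counts and a TMM factor (trimmed mean of M values, the scaling by which libraries are made comparable) of 0.596, against 0.870 to 1.27 in the others, which raises its scaled levels. Levels below are counts per 1000000 (CPM) scaled by these factors. The forebrain marker miRNAs summed to 52851 to 118594 CPM in amygdala and 13472 to 34950 CPM in dorsal raphe, and all 5 were called higher in amygdala. Of the 4 hindbrain markers of the Hox clusters 3 could be tested, and 2 of these were called lower in amygdala. The other one had a log2 fold change of 0.51. The 3 summed to 26.0 to 152 CPM in amygdala and 366 to 3929 CPM in dorsal raphe. Among the 4, miR-196b-5p was at 0 in 2 libraries. The oligodendrocyte markers summed to 4954 to 13589 CPM in amygdala and 10264 to 40514 CPM in dorsal raphe, with 3 of 4 called lower in amygdala. Muscle markers summed to 216 to 402 CPM in amygdala and 1344 to 5085 CPM in dorsal raphe, with 4 of 4 called lower, and choroid plexus and ciliated cell markers to 1325 to 28655 CPM in amygdala and 3736 to 8127 CPM in dorsal raphe, with 4 of 6 called higher in amygdala. Vascular markers summed to 33083 to 49739 CPM in amygdala and 43767 to 119233 CPM in dorsal raphe, with 0 of 4 called. Neuron markers summed to 203239 to 258286 CPM in amygdala and 125154 to 258551 CPM in dorsal raphe, with 1 of 4 called higher. That marker, miR-128-3p, is also 1 of the 5 forebrain markers. Microglia and leukocyte markers summed to 423 to 1617 CPM in amygdala and 1110 to 1653 CPM in dorsal raphe, with 1 of 5 called lower. The 2 erythrocyte markers summed to 56.4 to 322.8 CPM in amygdala and 78.5 to 228 CPM in dorsal raphe, with 0 called. The highest hindbrain, muscle, oligodendrocyte, vascular and neuron sums all came from low responder dorsal raphe replicate 4. Within dorsal raphe it also had the highest forebrain sum and the highest choroid plexus and ciliated cell sum. It did not have the highest erythrocyte sum or the highest microglia and leukocyte sum. No other marker of these lists was at 0 in any library, and their part in the results below was not tested.

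All 9 members were detected in every library above 3 counts, the level below which a count was not told from absence (0.369 to 1.72 CPM without scaling, counting error only), and all 9 passed the filter on low counts. Together they made up 3.67 to 6.29% of the counts of an amygdala library and 5.59 to 10.1% of a dorsal raphe library. rno-miR-127-3p, called miR-127-3p here, alone held 2.08 to 4.70% of the counts in amygdala and 3.52 to 8.96% in dorsal raphe. It was the 4th to 13th most abundant miRNA of an amygdala library and the 2nd to 4th of a dorsal raphe library. Of the members' own counts it made up 56.7 to 79.5% in amygdala and 63.0 to 88.6% in dorsal raphe, and both upper ends belong to the libraries with the fewest counts of their region.

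**Figure D1:**
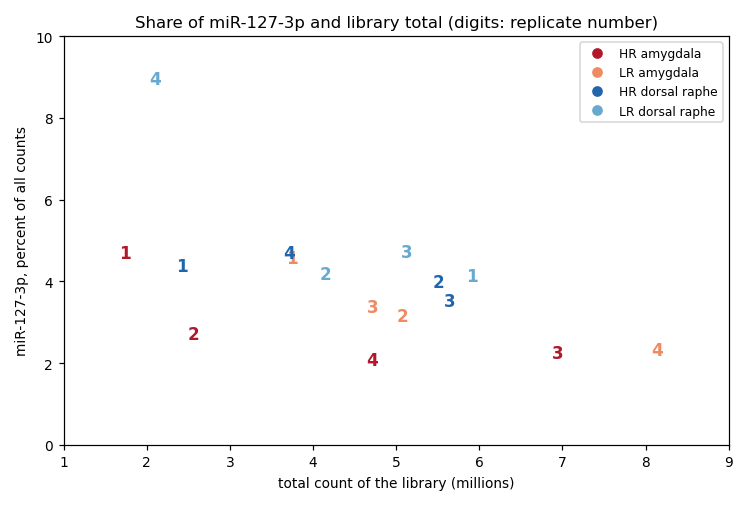
Share of all counts taken by miR-127-3p (percent, vertical axis) against the total count of the library (horizontal axis, in units of 1e6 counts) in the 16 libraries, each marked by its replicate number and coloured by group. Low responder dorsal raphe replicate 4 stands alone at 8.96%, and the other 15 libraries lie between 2.08 and 4.71%.

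The other members had far fewer counts. Mature miRNAs differ little in length, but how evenly the library protocol captured different miRNAs was not tested. Levels set side by side between members, or between the arms of a hairpin, are therefore levels of counts. miR-434-5p averaged 4758 ± 418 CPM in amygdala and 6616 ± 1629 CPM in dorsal raphe (SD, n = 8 each), and miR-434-3p 3601 ± 1400 CPM in amygdala and 5377 ± 1117 CPM in dorsal raphe. The arms of miR-136, miR-127-5p and miR-433-3p averaged between 1073 and 3590 CPM in either region. miR-431, whose mouse counterpart represses the Wnt antagonist Kremen1 and promotes axon growth in sensory neurons, averaged 75.3 ± 23.97 CPM in amygdala and 65.4 ± 21.0 CPM in dorsal raphe. The least abundant member, miR-433-5p, averaged 14.9 ± 5.14 CPM in amygdala and 40.0 ± 31.8 CPM in dorsal raphe, and rested on as few as 26 counts in a library.

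**Figure D2:**
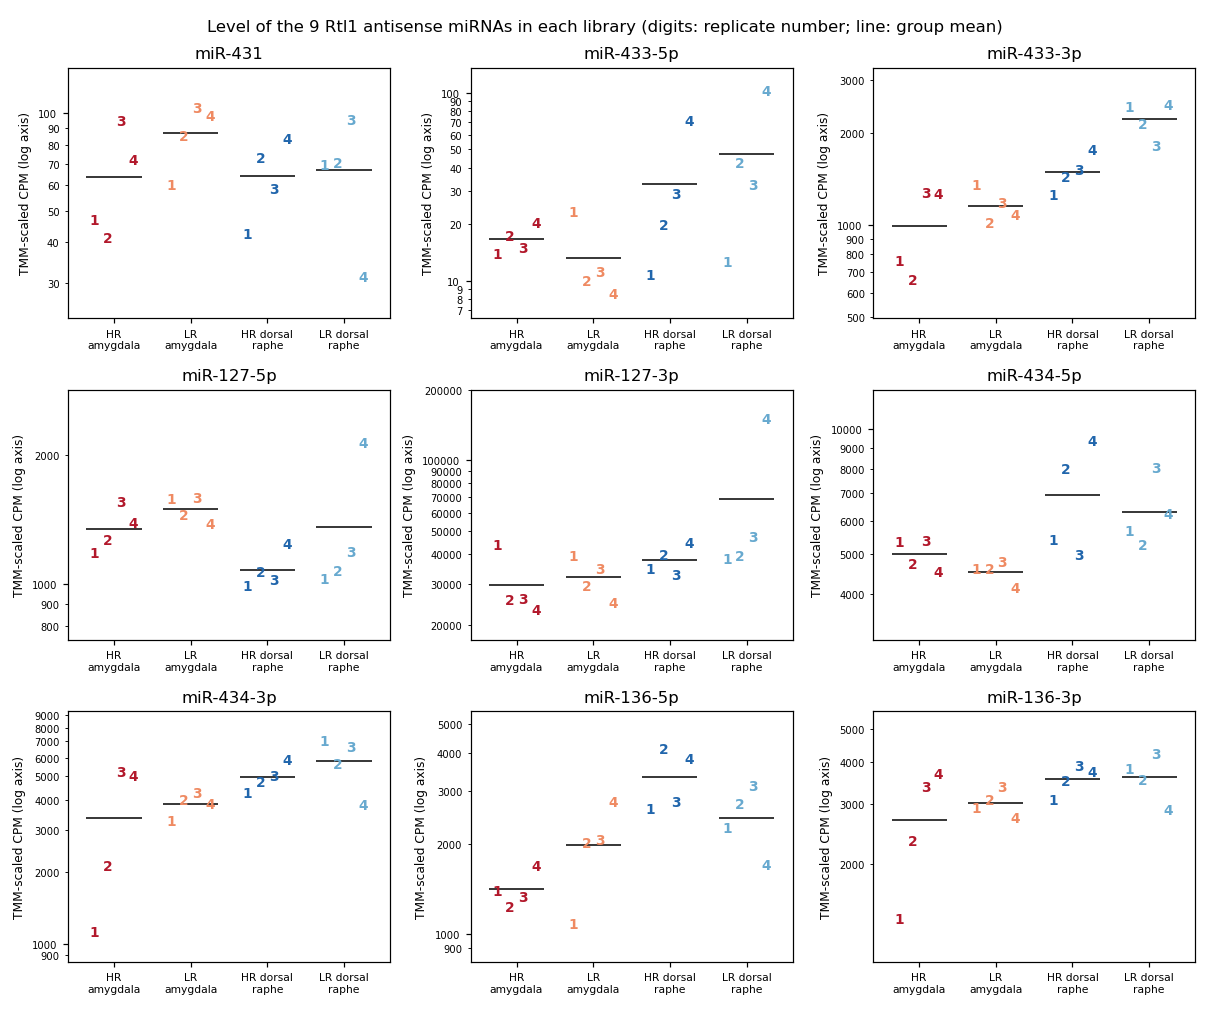
Scaled CPM (log axis) of each of the 9 members in the 16 libraries by group, with amygdala left of dorsal raphe, digits for replicate numbers and a line at each group mean. miR-127-3p in low responder dorsal raphe replicate 4 lies at 150425 CPM, and miR-433-3p is at 1355 CPM or below in all 8 amygdala libraries.

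The question of which members differ between the regions was tested over all 639 miRNAs that passed the filter, with edgeR's quasi-likelihood test and Benjamini-Hochberg adjustment at 0.05. Averaged over the lines, 3 of 9 members were called, all lower in amygdala: miR-433-3p, miR-433-5p and miR-136-5p. Among all miRNAs tested 24.3% were called, 14.9% lower and 9.39% higher in amygdala. The log2 fold change was below 0 for 7 of 9 members and for 53.4% of all 639 miRNAs. Its median was -0.58 over the members, against -0.08 over all 639. Arms of the same hairpin are not separate results. No member kept the 8 amygdala libraries apart from the 8 dorsal raphe libraries, which 6.57% of all miRNAs did, 4.69% being lower in amygdala. In tissue, fewer cells that express a miRNA and less of it in each cell cannot be told apart.

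miR-433-3p, whose human counterpart binds the messenger RNA of the growth factor FGF20, had 761, 661, 1276 and 1264 CPM in high responder amygdala and 1355, 1016, 1179 and 1076 CPM in low responder amygdala. In dorsal raphe it had 1257, 1432, 1516 and 1762 CPM in high responders and 2446, 2149, 1812 and 2469 CPM in low responders. The 3 highest amygdala libraries, at 1264 to 1355 CPM, lay above the lowest dorsal raphe library only, and the other 5 lay below all 8 of dorsal raphe. The level was 1.7-fold lower in amygdala (log2 fold change -0.77, SE 0.18, edgeR adjusted p = 0.0052), and this call held with any single library left out (adjusted p 0.00682 to 0.0316).

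The other arm of that hairpin, miR-433-5p, had 13.8, 17.4, 14.9 and 20.2 CPM in high responder amygdala and 23.2, 9.92, 11.1 and 8.45 CPM in low responder amygdala. Its levels were 10.8, 19.7, 28.8 and 71.1 CPM in high responder dorsal raphe and 12.6, 42.3, 32.3 and 103 CPM in low responder dorsal raphe. Amygdala libraries lay between 8.45 and 23.2 CPM, and replicate 4 of both dorsal raphe groups was far above the rest of its group. In low responders that replicate had 128 counts, fewer than the 187 and 165 of replicates 2 and 3. Without scaling it had 61.1 CPM, against 45.1 CPM in replicate 2. The level was 2.63-fold lower in amygdala (log2 fold change -1.40, SE 0.41, edgeR adjusted p = 0.0181). The call was lost, at adjusted p 0.0511 to 0.0933, without high responder amygdala replicate 1 or 2, low responder amygdala replicate 2 or 3, or high responder dorsal raphe replicate 4, and the log2 fold change without that last library was -0.91.

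miR-136-5p, from the hairpin at the far end of the group, had 1386, 1233, 1323 and 1685 CPM in high responder amygdala and 1078, 2006, 2050 and 2747 CPM in low responder amygdala. In dorsal raphe it had 2600, 4136, 2745 and 3824 CPM in high responders and 2255, 2702, 3104 and 1692 CPM in low responders. In high responders every amygdala library was below every dorsal raphe library, and in low responders the regions overlapped. Averaged over the lines, the level was 1.71-fold lower in amygdala (log2 fold change -0.77, SE 0.21, edgeR adjusted p = 0.0111). Leaving out any of 6 libraries ended this call (high responder amygdala replicate 2, low responder amygdala replicates 2 and 3, high responder dorsal raphe replicates 2 and 4, low responder dorsal raphe replicate 3; adjusted p 0.0521 to 0.0820).

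The remaining 6 members did not pass. miR-127-3p, which in human cells represses the transcription factor BCL6, had 43593, 25608, 25685 and 23090 CPM in high responder amygdala and 39137, 29350, 34566 and 24804 CPM in low responder amygdala. Its levels were 34460, 39647, 32771 and 44777 CPM in high responder dorsal raphe and 38236, 39197, 47257 and 150425 CPM in low responder dorsal raphe. The region ranges overlapped through high responder amygdala replicate 1 and low responder amygdala replicates 1 and 3. The group means, from 29494 ± 9476 CPM in high responder amygdala over 31964 ± 6227 CPM in low responder amygdala and 37914 ± 5431 CPM in high responder dorsal raphe to 68779 ± 54581 CPM in low responder dorsal raphe (SD, n = 4 each), had neighbours whose ranges overlapped at each step. The region difference was -0.73 (log2 fold change, SE 0.27, edgeR adjusted p = 0.056). It was -0.34 (adjusted p = 0.108) without low responder dorsal raphe replicate 4, where dorsal raphe averaged 39478 ± 5171 CPM (n = 7), and it passed without low responder dorsal raphe replicate 1 (adjusted p = 0.0374) or 2 (adjusted p = 0.0433).

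For miR-434-5p the region difference was -0.48 (log2 fold change, SE 0.17, edgeR adjusted p = 0.053), and it passed without high responder dorsal raphe replicate 1 (adjusted p = 0.0373) or low responder dorsal raphe replicate 4 (adjusted p = 0.0393). The values of miR-434-3p (-0.58, SE 0.26, adjusted p = 0.114) and miR-136-3p (-0.33, SE 0.19, adjusted p = 0.220) were also below 0. miR-431 (0.18, SE 0.25, adjusted p = 0.589) and miR-127-5p (0.23, SE 0.18, adjusted p = 0.352) were the members with values above 0, although miR-431 stood at -0.04 under a combination of settings described in the closing part. miR-127-5p averaged 1423 ± 149 CPM in amygdala and 1220 ± 378 CPM in dorsal raphe (SD, n = 8 each), where low responder replicate 4 alone had 2132 CPM.

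With both low-count libraries left out, the calls were partly different ones. miR-127-5p then rose in amygdala (log2 fold change 0.60, edgeR adjusted p = 0.00026), and it also passed with only low responder dorsal raphe replicate 4 left out (0.41, adjusted p = 0.0235). miR-433-3p (-0.50, adjusted p = 0.0198) and miR-136-5p (-0.65, adjusted p = 0.0104) still fell, and miR-433-5p did not pass (-0.81, adjusted p = 0.100). In that fit 128 of 648 miRNAs were called higher and 84 lower, and the median over all of them was 0.22, against -0.08 with all 16 libraries. With all 16 libraries kept, miR-127-5p also passed under a stricter filter on low counts, given in the closing part.

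**Figure D3:**
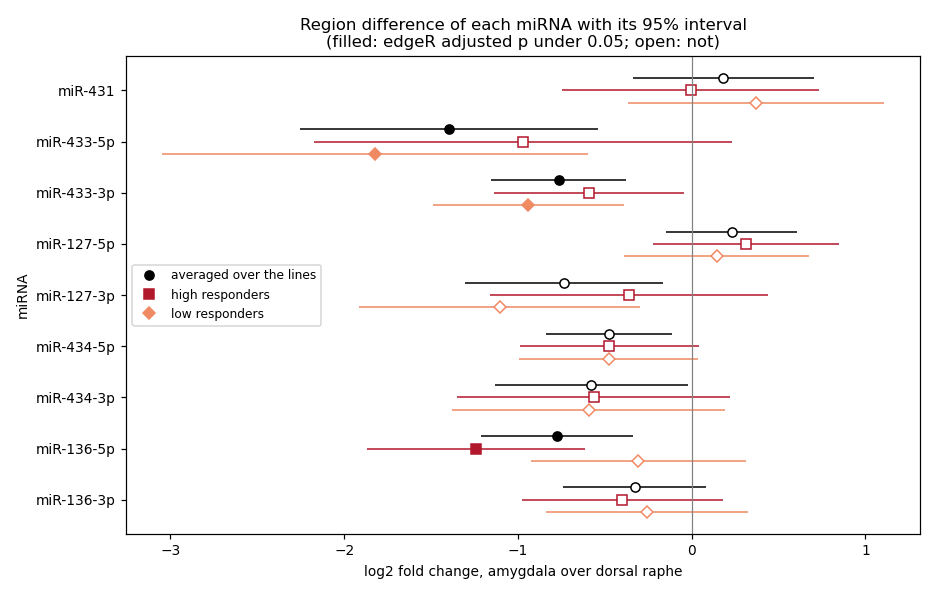
Log2 fold change of amygdala over dorsal raphe for each member with its 95% interval, averaged over the lines (circles), in high responders (squares) and in low responders (diamonds), with filled symbols for an edgeR adjusted p under 0.05. Filled symbols mark miR-433-3p, miR-433-5p and miR-136-5p only, and the 6 members other than these are open in all 3 comparisons.

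Within high responders 1 of 9 members was called, miR-136-5p, which was 2.36-fold lower in amygdala (log2 fold change -1.24, SE 0.30, edgeR adjusted p = 0.0083). Among all miRNAs 13.1% were called in that comparison, 6.57% lower in amygdala. Its groups did not overlap, against 23.5% of all miRNAs tested, 12.4% being lower in amygdala. The call was lost without high responder dorsal raphe replicate 2 (adjusted p = 0.0640) or 4 (adjusted p = 0.0501). miR-433-3p stood at -0.59 (SE 0.26, adjusted p = 0.149) and miR-433-5p at -0.97 (SE 0.57, adjusted p = 0.264) in high responders.

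Within low responders 2 of 9 members were called, miR-433-3p at 1.92-fold lower (log2 fold change -0.94, SE 0.26, edgeR adjusted p = 0.0210) and miR-433-5p at 3.54-fold lower in amygdala (log2 fold change -1.82, SE 0.58, adjusted p = 0.0436). Among all miRNAs 14.1% were called there, 10.5% lower. miR-433-3p and miR-434-5p did not overlap between the regions, against 19.2% of all miRNAs, 13.1% being lower in amygdala. Neither call held throughout: miR-433-3p passed in 5 and miR-433-5p in 4 of the 16 fits that left out a library, with adjusted p up to 0.151 for miR-433-3p and 0.199 for miR-433-5p. The loss came with every low responder library of that comparison but amygdala replicate 1 (both miRNAs) and dorsal raphe replicate 1 (miR-433-5p), and with high responder amygdala replicate 3 and high responder dorsal raphe replicates 2 and 3 for both, high responder dorsal raphe replicate 4 for miR-433-3p, and high responder amygdala replicates 1, 2 and 4 for miR-433-5p. In low responders miR-136-5p stood at -0.31 (SE 0.29, adjusted p = 0.50).

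Whether these region differences differed between the lines was tested as the interaction, the region difference in high responders minus that in low responders. For miR-136-5p it was -0.93 on the log2 scale (SE 0.42, unadjusted p = 0.0379, edgeR adjusted p = 0.356). miR-433-3p had 0.35 (SE 0.37, adjusted p = 0.783) and miR-433-5p 0.85 (SE 0.80, adjusted p = 0.768). The interaction of miR-127-3p was 0.74 (SE 0.54, adjusted p = 0.640), and -0.13 without low responder dorsal raphe replicate 4. No member passed, and 0 of 639 miRNAs did (0% called; 81 had an unadjusted p under 0.05, limma-voom called 0 and DESeq2 called 22, none of them a member).

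A ratio of 2 miRNAs within a library does not depend on how libraries are scaled. The ratio of the arms was therefore compared for the 4 hairpins with both arms listed, together with the ratio of each other member to miR-127-3p, 11 ratios in all. The 3p arm of miR-127 had more counts than its 5p arm in every library. The ratio was 36.9, 20.2, 16.5 and 16.6 in high responder amygdala and 24.8, 20.3, 21.7 and 17.9 in low responder amygdala. It was 34.7, 37.1, 31.9 and 36.01 in high responder dorsal raphe and 37.0, 36.4, 39.7 and 70.6 in low responder dorsal raphe. Only high responder amygdala replicate 1 reached into the dorsal raphe range. The mean was 21.9 ± 6.67 in amygdala and 40.4 ± 12.4 in dorsal raphe (SD, n = 8 each), and the mean log2 ratio was lower in amygdala by a difference of -0.89 (exact two-sided permutation test within lines, p = 0.00163, adjusted p = 0.0180 over the 11 ratios).

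This difference passed with any single library left out (-1.02 to -0.78, adjusted p 0.00449 to 0.0314). With both low-count libraries left out the regions no longer overlapped, with ratios of 16.5 to 24.8 in amygdala and 31.9 to 39.7 in dorsal raphe (difference -0.91, exact permutation adjusted p = 0.00898). The means were then 19.7 ± 2.99 in amygdala and 36.1 ± 2.38 in dorsal raphe (SD, n = 7 each).

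**Figure D4:**
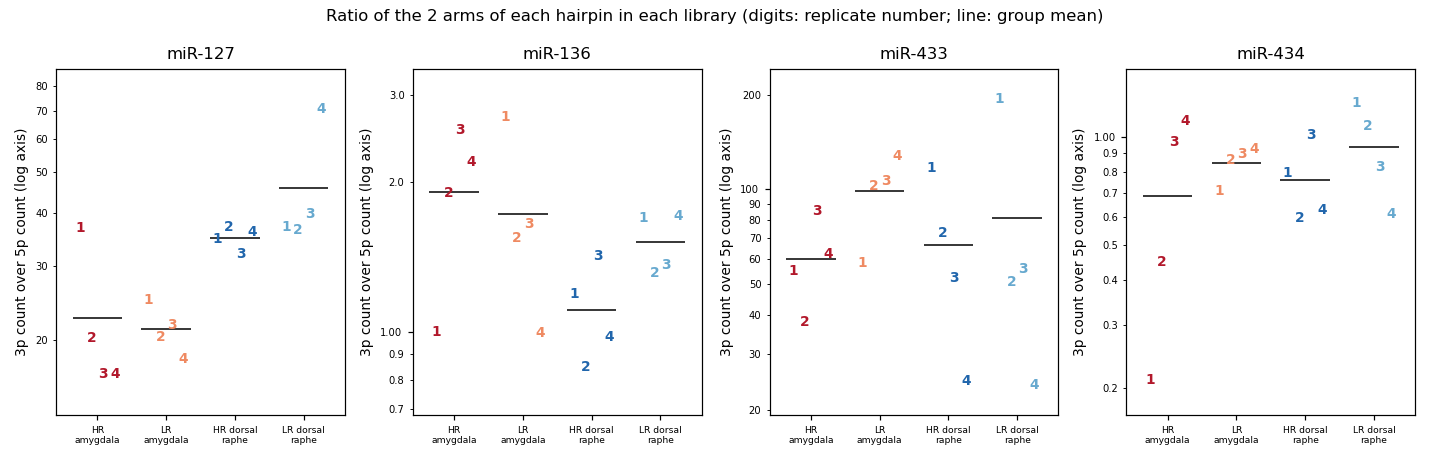
Ratio of 3p to 5p counts (log axis) of miR-127, miR-136, miR-433 and miR-434 in the 16 libraries by group, with digits for replicate numbers and a line at each group mean. For miR-127, 7 of 8 amygdala libraries lie below every dorsal raphe library, and for the other hairpins the regions overlap widely.

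The other hairpins showed other balances. The counts of the miR-136 arms were closer to even, with 3p to 5p ratios of 0.994 to 2.71 in amygdala and 0.849 to 1.71 in dorsal raphe. For miR-433 the 3p arm prevailed, at 38.04 to 127.3 in amygdala and 24.1 to 193 in dorsal raphe, with 26 to 277 counts behind the 5p arm of a library. The miR-434 ratio was 0.210 to 1.11 in amygdala and 0.594 to 1.24 in dorsal raphe, and its lowest value, 0.210, was that of high responder amygdala replicate 1. None of these 3 passed (exact permutation tests, log2 difference of amygdala minus dorsal raphe 0.42 for miR-136, adjusted p = 0.385; 0.32 for miR-433, adjusted p = 0.769; -0.24 for miR-434, adjusted p = 0.769). Among the 7 ratios to miR-127-3p none passed either; the lowest p was that of miR-431 (difference 0.84, exact permutation p = 0.0706, adjusted p = 0.385). Without low responder dorsal raphe replicate 4 the miR-431 difference was 0.44 (exact permutation p = 0.129, adjusted p = 0.284), and that of the miR-433 arms was 0.10.

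Between the lines no member passed in either region. In dorsal raphe 0 of 639 miRNAs were called (0%; 70 had an unadjusted p under 0.05, and limma-voom and DESeq2 called 0 as well). Members ranged from -0.86 to 0.45 in log2 fold change of high over low responders. miR-127-3p had -0.86 (SE 0.38, 95% interval -1.66 to -0.05, unadjusted p = 0.0378, edgeR adjusted p = 0.403), and -0.0040 (adjusted p = 0.996) without low responder replicate 4, where the means were 37914 ± 5431 CPM in high responders (n = 4) and 41563 ± 4954 CPM in low responders (n = 3). miR-433-3p had -0.57 (SE 0.26, 95% interval -1.12 to -0.02, unadjusted p = 0.0415, adjusted p = 0.408), and its levels in high responders, 1257 to 1762 CPM, lay below those in low responders, 1812 to 2469 CPM. Among all miRNAs 4.23% did not overlap between the lines in dorsal raphe, 3.6% being lower in high responders. The ratio of miR-136-5p to miR-127-3p was higher in every high responder than in every low responder library of dorsal raphe (log2 difference 1.06, exact permutation p = 0.0286, the smallest that 4 against 4 libraries allow; adjusted p = 0.314). Without low responder replicate 4 that difference was 0.43 (exact permutation p = 0.0571, adjusted p = 0.314). With 4 libraries a group, no single ratio could pass between the lines once adjusted over the 11 ratios.

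In amygdala 0 of 639 miRNAs were called between the lines (0%; 65 had an unadjusted p under 0.05, limma-voom called 0 and DESeq2 called 19, none of them a member). Members ranged from -0.49 to 0.35, and no member was without overlap between the lines, against 8.76% of all miRNAs, 3.76% being lower in high responders. miR-136-5p had -0.49 (SE 0.29, 95% interval -1.11 to 0.13, edgeR adjusted p = 0.659), and miR-127-3p had -0.12 (SE 0.38, 95% interval -0.92 to 0.68, adjusted p = 0.922). These intervals leave room for differences of more than 1.5-fold in either direction for miR-127-3p. Library totals in place of TMM move the median log2 difference of all miRNAs by 0.20 for the lines in dorsal raphe, -0.33 for the interaction, -0.19 for the regions in high responders and 0.14 for the regions in low responders, and values of that size were read as having no direction.

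The miRNAs whose level followed miR-127-3p most closely over the 16 libraries were sought among the 407 with a mean of at least 10 CPM. They were miR-379-5p (Pearson r of log2 CPM 0.946), miR-28-3p (0.917), miR-532-5p (0.912), miR-125b-2-3p (0.911) and miR-380-5p (0.907). miR-379-5p and miR-380-5p come from the miR-379 to miR-410 cluster of the same domain. Without the 2 low-count libraries r was 0.786 for miR-379-5p and 0.899 for miR-380-5p, and 0.566 to 0.755 for the other three. Among the members, r with miR-127-3p was highest for miR-433-5p (0.718), followed by miR-433-3p (0.571), miR-434-5p (0.469) and miR-127-5p (0.388), and lowest for miR-431 (-0.504). This order did not hold without these 2 libraries. It then ran from miR-434-5p (0.728), miR-433-3p (0.679), miR-433-5p (0.565), miR-136-3p (0.529), miR-136-5p (0.526) and miR-434-3p (0.483) down to miR-431 (0.077) and miR-127-5p (-0.395). All these values describe libraries that share their scaling and 4 groups, and low responder dorsal raphe replicate 4 carries much of the range.

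The other miRNAs of the Dlk1-Dio3 domain give the surroundings of these values. Of 16 further miRNAs of the domain outside the miR-379 to miR-410 cluster, 3 were called higher and 3 lower in amygdala averaged over the lines. Their median was -0.19. They were searched by the names miR-770, miR-673, miR-493, miR-337, miR-540, miR-665, miR-341, miR-1188 and miR-370, and their positions were not checked here. miR-770-5p, whose hairpin lies within Meg3 in mice, averaged 64.6 ± 14.5 CPM in amygdala and 124 ± 46.6 CPM in dorsal raphe (log2 fold change -0.89, edgeR adjusted p = 0.00369). miR-493-3p was called higher, at 69.8 ± 32.8 CPM in amygdala and 35.5 ± 13.9 CPM in dorsal raphe (0.93, adjusted p = 0.00845). Of the 69 listed miRNAs of the miR-379 to miR-410 cluster 66 were tested, and 1 was called higher and 17 lower, with a median of -0.36. miR-758-3p averaged 133 ± 44.7 CPM in amygdala and 467 ± 138 CPM in dorsal raphe (-1.81, adjusted p = 3.8e-05). miR-134-5p, which in rat neurons limits the size of dendritic spines, averaged 447 ± 82.8 CPM in amygdala and 1207 ± 577 CPM in dorsal raphe (-1.41, adjusted p = 0.000137; SD, n = 8 each). The members' median of -0.58 was thus set beside medians of -0.19 and -0.36 in the neighbouring lists and -0.08 over all miRNAs, and whether the lists differ was not tested.

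**Figure D5:**
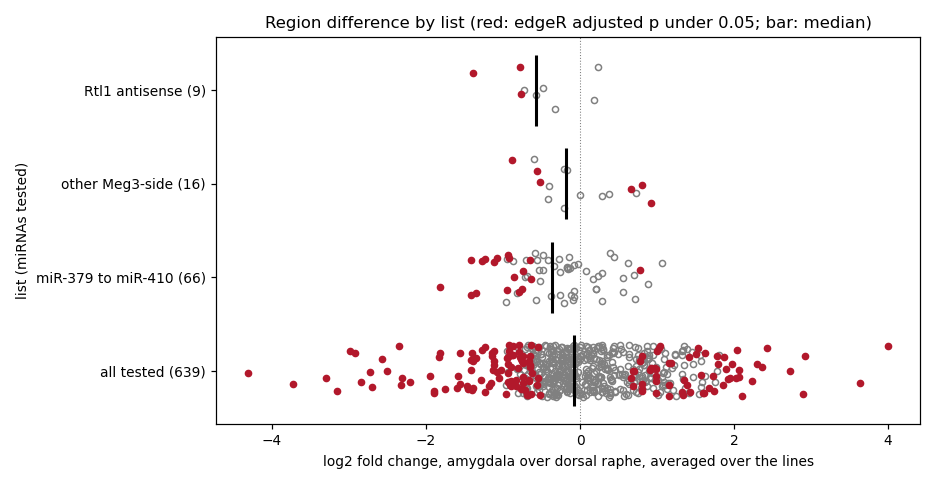
Region difference (log2 fold change, amygdala over dorsal raphe, mean of both lines) by list. Red points mark an edgeR adjusted p under 0.05, and a bar marks each median. The lists are the 9 Rtl1 antisense miRNAs, 16 further domain miRNAs (labelled other Meg3-side), 66 of the miR-379 to miR-410 cluster and all 639 tested. The medians lie at -0.58, -0.19, -0.36 and -0.08 from top to bottom.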

How the data were processed

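The authors deposited 1 table of raw counts for each of the 16 libraries, with a row for each of 722 mature miRNAs. Per the labels' protocols, RNA came from miRNeasy kits and libraries from an Illumina small RNA protocol with Pippin size selection. The tools named in the submitters' processing notes are cutadapt 1.3.1, Bowtie2 and bedtools 2.14.2. The genome build and annotation behind the counts, and the rule for reads with several matches, were not stated in what was used here, and no coordinates are printed.

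Counts were used as deposited, and no 2 libraries were copies (chi-square per degree of freedom at least 50.5 over 120 pairs). filterByExpr (minimum count 10, minimum total 15) kept 639 miRNAs and dropped 83. edgeR 4.0.16 was fitted with quasi-likelihood and robust moderation, TMM scaling and a mean for each of 4 groups. Log2 CPM used a prior count of 2, and ratios used raw counts with a pseudocount of 0.5. DESeq2 1.42.0 and limma 3.58.1 (voom) were alternatives. The script was tested on simulated data. The members, lists, tests and alternatives were chosen with earlier results of these data known. Every member was named, and of each neighbouring list the up to 2 of lowest p that passed.

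Same-numbered libraries of high and low responder amygdala deviated together, with correlations of 0.688, 0.290, 0.212 and 0.509, all over 0.1. The numbers were therefore taken to pair them, although 5 of these 8 libraries correlated best with their own number. What a number stands for is not labelled. Other pairs of groups did not have all correlations over 0.1. The main tests, those of the lines in amygdala included, used no pairing, and it entered only as an alternative.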

Additional observations from a re-analysis of the deposited data

Results flagged for a closer look

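In 52 sets of 4 libraries (9 members and 4 arm ratios in 4 groups each) 3 had a library far from its fellows, where chance gives about 1 in 20. miR-127-3p in low responder dorsal raphe replicate 4 had 150425 CPM, against 38236 to 47257 CPM in the other 3 libraries of the group. The miR-127 ratio of 3p to 5p counts was 70.6 in that library, against 36.4 to 39.7 in the others. miR-127-3p in high responder amygdala replicate 1 had 43593 CPM, against 23090 to 25685 CPM in the others. These are the 2 libraries with the fewest counts. Whether depth plays a part was not tested.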

How the results depend on the processing

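Members called in the averaged region comparison numbered 3, and 1 to 5 when 1 library was left out: 1 without high responder amygdala replicate 2, high responder dorsal raphe replicate 4, or low responder amygdala replicate 2 or 3, and 5 (1 higher, 4 lower) without low responder dorsal raphe replicate 4. Over all miRNAs, the fits with 1 member called had 59 to 60 called higher and 59 to 62 lower. The fit with 5 had 106 of 663 called higher and 106 lower. With low responder dorsal raphe replicate 4 out and library totals in place of TMM, a setting chosen after seeing the data, 6 members were called. In that fit 83 of 663 miRNAs were called higher and 174 lower. In high responders the count was 1, a lower one. It was 2 with DESeq2 and with library totals, all lower, and 2 without the 2 libraries of lowest total, 1 higher and 1 lower. Over all miRNAs these fits called 72 higher and 64 lower, 40 and 71, and 86 and 52, against 42 and 42. With totals and low responder dorsal raphe replicate 4 left out the count was 4, all lower. In that fit 55 of 663 miRNAs were called higher and 140 lower. The count was 0 to 1 with single libraries left out, where 34 to 72 of all miRNAs were called higher and 27 to 65 lower. In low responders the count was 2, both lower. It was 1 with the stricter filter, totals, limma-voom, RLE (relative log expression) scaling or the replicate block. The count in low responders was 1 with totals and low responder dorsal raphe replicate 4 left out (35 of 663 miRNAs higher and 85 lower). It was 0 in a fit of only these 2 groups (29 of 554 miRNAs higher and 35 lower). Without the 2 libraries of lowest total it was 2, but 1 higher and 1 lower (75 of 648 miRNAs higher and 54 lower). With single libraries left out it was 0 to 2, where 19 to 43 of all miRNAs were called higher and 28 to 65 lower. The cause was not tested, though leaving libraries out changed how many miRNAs were tested (645 to 663). Over all miRNAs, DESeq2 called 100 higher and 103 lower in the averaged region comparison, against 60 and 95.

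miR-433-3p kept its call in the averaged comparison under all 25 alternatives. Direction was followed for every member in the averaged comparison, and for only some members in the others. Among these it turned for miR-431 (-0.039 with totals and low responder dorsal raphe replicate 4 left out) and for miR-127-3p. The amygdala line difference of miR-127-3p was 0.034 with the stricter filter and -0.38 to 0.015 with single libraries left out. Its interaction was -0.34 without the 2 lowest libraries and -0.12 with totals and low responder dorsal raphe replicate 4 left out. With single libraries left out its interaction was -0.13 to 0.82. Members that were not followed turned as well. With totals, members below 0 went from 7 to 4 for the lines in dorsal raphe and from 3 to 7 for the interaction. Between regions the libraries share only a number. In the 4 pairs of groups 2, 2, 3 and 0 of 8 libraries correlated best with their own number. With a replicate block 2 members were called in the averaged comparison, both lower, and miR-433-5p was not among them. Over all miRNAs that fit called 80 higher and 108 lower. With ratios paired by number 0 passed (miR-127 arms, exact permutation adjusted p = 0.172). However, 8 pairs allow no p below 0.00781, and a single ratio at that p cannot pass once adjusted over 11 ratios. Pairing therefore could not decide on the miR-127 arms alone. Where numbers were taken as pairs, for the lines in amygdala, the replicate block left 0 calls and changed none. Depth limits miR-433-5p most, with 26 to 277 counts a library.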
